A study of Mus musculus with 17 samples.

Results

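Ighv genes are the germline variable segments of the antibody heavy chain. The files listed 185 Ighv identifiers, and 91 of them, of 55401 gene identifiers in all, had normalized counts that added up to 10 or more across the 17 libraries once Ighv11-2 and Ighv12-3 were set aside. The members were therefore chosen by their summed level, so that level is a description here and is not tested. Ighv14-1 and Ighv1-31 lay just inside the threshold with totals of 11, and Ighv3-2 and Ighv3-4 lay just outside it with totals of 9. Of the 94 identifiers left out, 75 were at 0 in every library, 17 had totals of 1 to 9, and 2 were the segments set aside by name. The symbols fitted the annotated class: 90 members were annotated as functional variable genes and 1, Ighv4-2, as a pseudogene, whereas 60 of all 70 Ighv pseudogenes were at 0 in every library.

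The libraries were poly(A)-selected, strand-specific RNA-seq of whole perigonadal white adipose tissue (pWAT) from C57BL/6J mice aged 16 weeks, kept on standard chow. U9-KO mice lacked the U90926 gene, which makes a transcript studied as a long noncoding RNA, and WT mice were their littermates. There were 5 WT females, 5 U9-KO females, 3 WT males and 4 U9-KO males, 1 library each. U90926 itself was at 0 or 1 in all 17 libraries, so its counts neither back nor contradict the genotype labels. The values were read counts divided by a size factor, and the reads assigned to genes were estimated at 19700000 to 27600000 per library. Adipocyte markers such as Adipoq were high in every library, and the summed level of 8 ovary genes spread from 2384 to 90913 in the females, highest in U9-KO female 1.

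A developing B cell joins 1 variable segment to a diversity and a joining segment, and its descendants carry the same joined gene. The joined exon encodes the part of the heavy chain that meets the antigen, and the constant gene downstream, such as Ighm for IgM or Ighg3 for IgG3, sets the antibody class. Plasma cells hold far more antibody mRNA than resting B cells, so a few of them can supply most antibody transcripts of a tissue. In bulk tissue, fewer cells of a type and less RNA per cell cannot be told apart.

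All 91 members lay on the minus strand of chromosome 12, between 113578504 and 116000461 (GRCm38). The germline V exons of 6 segments are shown because each led a library with over 30% of its Ighv count or was among the 3 highest by mean share. Each run is the last 300 bases of exon 2, 5′ to 3′, from the GENCODE M21 transcripts, and capitals mark the bases unlike the nearest other annotated Ighv segment. Ighv1-11 is at chr12:114612243-114612542, Ighv6-3 at chr12:114391712-114392011, Ighv7-3 at chr12:114153180-114153479, Ighv2-2 at chr12:113588267-113588566, Ighv1-42 at chr12:114937113-114937412 and Ighv1-15 at chr12:114657353-114657652.
Ighv1-11: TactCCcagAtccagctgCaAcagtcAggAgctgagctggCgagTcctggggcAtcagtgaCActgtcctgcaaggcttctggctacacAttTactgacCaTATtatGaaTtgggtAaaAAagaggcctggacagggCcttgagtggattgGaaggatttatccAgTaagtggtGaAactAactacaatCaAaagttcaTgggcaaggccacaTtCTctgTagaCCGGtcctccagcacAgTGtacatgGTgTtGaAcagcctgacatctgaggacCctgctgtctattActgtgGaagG
Ighv6-3: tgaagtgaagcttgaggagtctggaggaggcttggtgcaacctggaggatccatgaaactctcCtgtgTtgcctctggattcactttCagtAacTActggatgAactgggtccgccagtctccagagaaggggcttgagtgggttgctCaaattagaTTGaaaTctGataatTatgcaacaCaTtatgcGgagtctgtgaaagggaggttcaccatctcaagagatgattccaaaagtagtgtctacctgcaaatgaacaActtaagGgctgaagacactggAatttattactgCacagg
Ighv7-3: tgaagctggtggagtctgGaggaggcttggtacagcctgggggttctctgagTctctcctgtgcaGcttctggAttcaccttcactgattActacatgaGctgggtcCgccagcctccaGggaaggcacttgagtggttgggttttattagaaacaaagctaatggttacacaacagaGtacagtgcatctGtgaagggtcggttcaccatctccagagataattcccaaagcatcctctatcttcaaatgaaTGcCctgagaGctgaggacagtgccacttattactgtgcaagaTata
Ighv2-2: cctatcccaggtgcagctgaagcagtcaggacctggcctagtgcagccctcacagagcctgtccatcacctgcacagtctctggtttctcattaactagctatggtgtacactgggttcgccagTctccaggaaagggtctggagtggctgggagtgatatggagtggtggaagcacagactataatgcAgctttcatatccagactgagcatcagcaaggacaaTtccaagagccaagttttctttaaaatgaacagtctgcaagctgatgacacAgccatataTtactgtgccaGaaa
Ighv1-42: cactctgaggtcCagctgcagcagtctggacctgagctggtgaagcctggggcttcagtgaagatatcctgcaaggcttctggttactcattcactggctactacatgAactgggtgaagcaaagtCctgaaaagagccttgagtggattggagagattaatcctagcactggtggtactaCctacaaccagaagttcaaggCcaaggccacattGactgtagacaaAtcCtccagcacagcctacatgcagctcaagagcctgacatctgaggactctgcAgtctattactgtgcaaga
Ighv1-15: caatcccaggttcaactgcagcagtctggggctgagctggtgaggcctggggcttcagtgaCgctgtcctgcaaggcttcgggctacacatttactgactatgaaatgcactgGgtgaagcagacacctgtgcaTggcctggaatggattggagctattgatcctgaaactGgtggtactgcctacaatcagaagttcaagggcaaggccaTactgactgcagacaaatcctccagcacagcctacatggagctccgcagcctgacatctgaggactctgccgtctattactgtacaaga
Ighv1-11 stood furthest from its nearest relative, Ighv1-76, with 82.0% identity and 55 unlike bases over the whole V exon. Ighv6-3 had 92.6% identity with Ighv6-6 and Ighv7-3 had 94.6% with Ighv7-2. The other 3 were close copies: Ighv1-42 differed from Ighv1-43 at 9 bases, Ighv2-2 from Ighv2-4 at 6 and Ighv1-15 from Ighv1-23 at 5. Over all members the median identity to the nearest relative was 95.4%, and 10 members reached at least 98%. The V exons of Ighv1-71 and Ighv1-62-2 were identical, so their counts of 266 and 133 over all libraries are uncertain as a split. The letters TGTGCAAGA, which encode the cysteine, alanine and arginine common at the end of a variable segment, were found on the sense strand in the last 15 bases of 54 of 91 members (59.3%) and of 28 of the other 94 identifiers (29.8%). The capitals are few in Ighv1-42, Ighv2-2 and Ighv1-15 and many in Ighv1-11, so a read tells the former 3 from a relative at fewer positions.

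The 91 segments held 24907 normalized counts over all libraries, with a median of 103 per segment. The 5 segments of largest total held 41.5% of that sum, and Ighv1-42 had the largest total, 2991. Segments were uneven across mice. For 40 members more than 50% of the total came from 1 library, and for 12 members more than 80% did. The median member was at 1 or more in 10 libraries and had 48.1% of its total in its top library. Only Ighv6-3 and Ighv1-55 were at 1 or more in all 17 libraries, and 12 members reached 10 in none. The top library was U9-KO female 3 for 30 members, WT male 1 for 16 and U9-KO female 1 for 9.

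**Figure D1:**
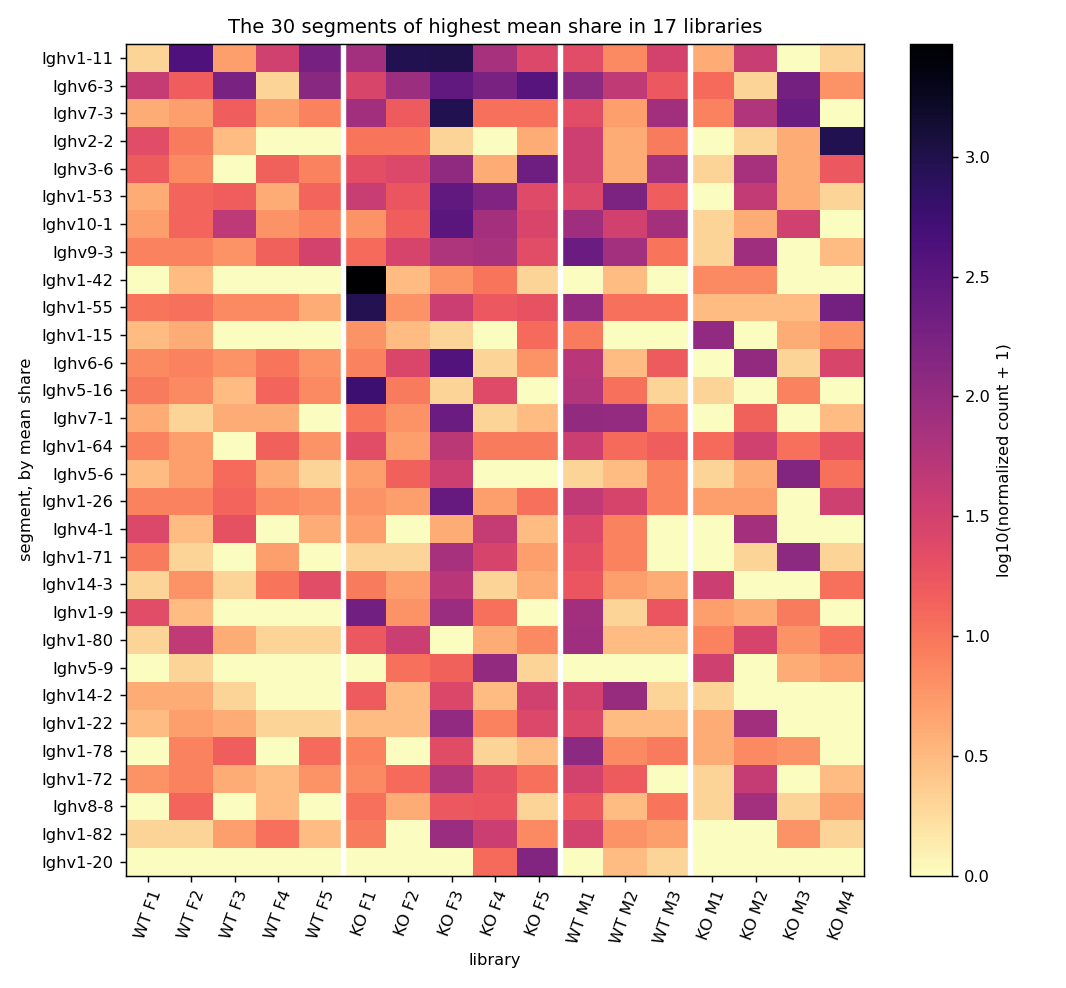
Normalized counts, as log10(count + 1), of the 30 segments of highest mean share (rows) in 17 libraries (columns; white lines part WT females, U9-KO females, WT males and U9-KO males). Dark cells are scattered singly, as for Ighv1-42 in U9-KO female 1 (2958) and Ighv2-2 in U9-KO male 4 (953), while Ighv6-3 has a value in every column.

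Ighv1-11 had the highest mean share of the Ighv count, 12.1% with each library given equal weight. Its counts were 1, 405, 4, 32 and 185 in the WT females and 78, 949, 977, 71 and 24 in the U9-KO females. In males they were 21, 6 and 30 in WT and 3, 37, 0 and 1 in U9-KO. Ighv1-11 was thus high in some females of both genotypes and at most 37 in any male, with overlap between genotypes in each sex. It was the top segment of 5 libraries, all female.

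Ighv6-3 had a mean share of 10.4%. Its counts were 39, 14, 177, 1 and 127 in the WT females and 27, 87, 276, 177 and 347 in the U9-KO females. In WT males they were 118, 44 and 16, and in U9-KO males 11, 1, 190 and 5. The genotypes overlapped in both sexes, and the segment led 4 libraries, all female, and was among the first 3 of 8.

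Ighv7-3, with a mean share of 4.72%, led WT male 3 and U9-KO male 3. WT females had it at 3, 4, 14, 4 and 7, U9-KO females at 80, 15, 939, 10 and 10, WT males at 21, 4 and 79 and U9-KO males at 7, 58, 230 and 0. The value in U9-KO female 3 was 63.2% of its total. Ighv3-6 (3.76%), Ighv1-53 (3.51%), Ighv10-1 (3.48%) and Ighv9-3 (3.39%) had 34.8% to 43.4% of their totals in their top libraries and were at 10 or more in 10 to 12 libraries. Ighv1-55 (3.01%) was at 10 or more in 9 libraries, with 68.0% of its total in U9-KO female 1. Ighv2-2 (4.33%) and Ighv1-42 (3.25%) owed their rank to 1 mouse each: Ighv2-2 was at 953 in U9-KO male 4 and at most 34 elsewhere, and Ighv1-42 was at 2958 in U9-KO female 1 and at most 9 elsewhere.

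Dominance by the leading segment ranged widely. The top segment took 9.98% to 61.7% of a library's Ighv count, with a median of 27.2% over the 17 libraries. Its share exceeded 50% in 4 libraries, exceeded 30% in 8 and was under 20% in 7. Among WT females the top shares were 13.9% (Ighv6-3), 55.0% (Ighv1-11), 38.3% (Ighv6-3), 15.3% (Ighv1-11) and 33.6% (Ighv1-11). Among U9-KO females they were 51.1% (Ighv1-42), 61.7% (Ighv1-11), 16.4% (Ighv1-11), 15.1% (Ighv6-3) and 31.6% (Ighv6-3). The female genotypes overlapped almost whole, and strongly led and evenly used libraries occurred in both.

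Among WT males the top shares were 11.4% (Ighv9-3), 20.2% (Ighv1-53) and 16.1% (Ighv7-3). Among U9-KO males they were 34.4% (Ighv1-15), 9.98% (Ighv6-6), 27.2% (Ighv7-3) and 59.5% (Ighv2-2). No 2 libraries of a male genotype shared a leading segment, although 3 of 4 U9-KO libraries exceeded every WT male and U9-KO male 2 was lower than all of them. This order rests on leaving Ighv11-2 out. With Ighv11-2 and Ighv12-3 kept in, Ighv11-2 led all 3 WT males, at 10.7%, 74.4% and 17.6%, and WT male 2 exceeded every U9-KO male, the highest of which was at 58.9%. Across all mice 9 different segments led a library, and 28 different segments filled the 51 places among the leading 3 of each library.

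**Figure D2:**
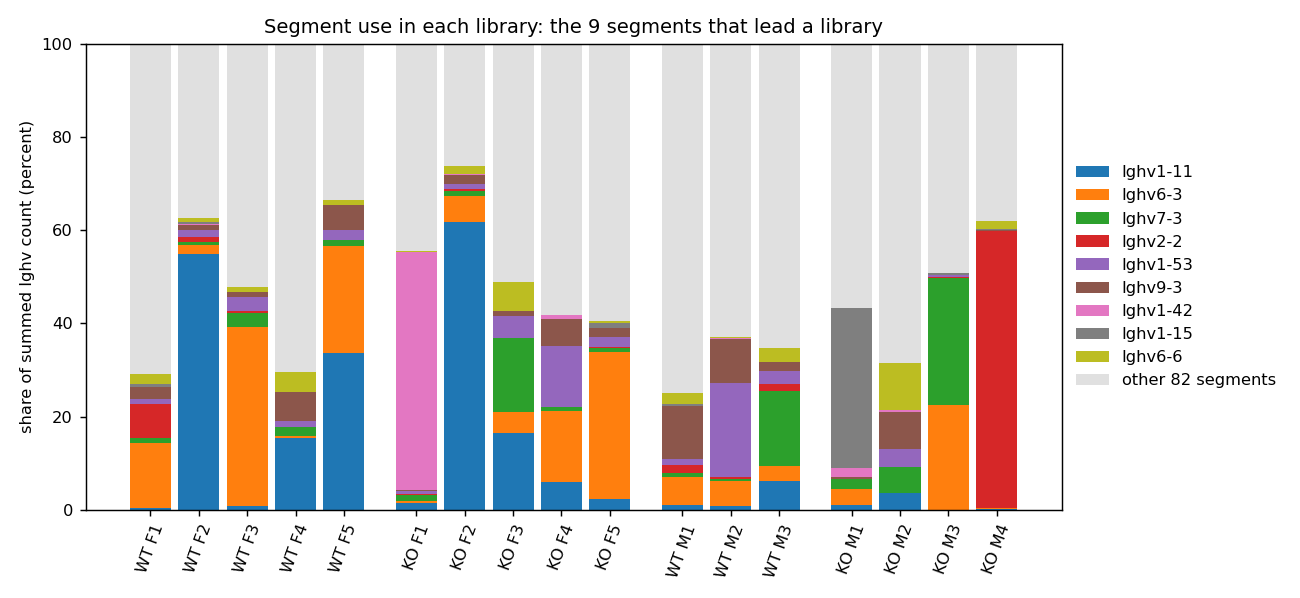
Share of the summed Ighv count, in percent, taken in each of 17 libraries by the 9 segments that lead at least 1 library; the grey part of each bar is the other 82 segments. Ighv1-11 takes 55.0% in WT female 2 and 61.7% in U9-KO female 2, while in the males the largest single blocks are Ighv2-2 (59.5%) and Ighv1-15 (34.4%).

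The effective number of segments, the inverse of the summed squared shares, equals the number of segments that would give the same evenness if all were used alike. WT females had 19.8, 3.22, 5.95, 18.7 and 5.71, and U9-KO females had 3.30, 2.58, 13.6, 14.4 and 6.19, which overlap. In males it was 24.8, 11.1 and 11.3 in WT and 6.54, 16.9, 5.52 and 2.64 in U9-KO, where 3 of 4 U9-KO libraries were lower than all WT and U9-KO male 2 lay inside the WT range. With Ighv11-2 and Ighv12-3 kept in, WT male 2 fell to 1.79, below every U9-KO male (2.69 to 17.3). These are summaries over members chosen by level, so no test was made of them.

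The number of segments seen depends on how many counts there are. Members at 1 or more numbered 42 to 64 in WT females, 57 to 75 in U9-KO females, 39 to 72 in WT males and 28 to 43 in U9-KO males. When every library was brought to the Ighv count of the smallest, 209, WT females had an expected 36.5 to 49.8 and U9-KO females 21.7 to 39.2. The female order turned from higher to lower medians in U9-KO, with overlap in both. In males the expected number was 31.3 to 45.7 in WT and 17.6 to 31.0 in U9-KO, without overlap, although the nearest libraries were nearly level. With Ighv11-2 and Ighv12-3 kept in, an alternative chosen after seeing the data, WT male 2 had an expected 21.4 and the male genotypes overlapped (21.4 to 46.0 in WT, 18.9 to 31.7 in U9-KO). The summed level of 9 B cell genes such as Ms4a1, Cd79a and Cd79b did not overlap in males, at 435 to 949 in WT and 300 to 403 in U9-KO. With 3 WT and 4 U9-KO males, 3.8% of all single genes tested lay all lower in U9-KO and 3.8% all higher. All 9 of these B cell genes were lower in U9-KO males, 6 of them at an unadjusted limma p under 0.05, where 4.09% of all genes were lower, and none at an adjusted p under 0.05. The 8 T cell genes, such as Cd3e and Cd4, were all lower in U9-KO males too, 1 of them at an unadjusted p under 0.05, and their median log2 difference was -0.97, where that of the B cell genes was -0.95. The summed T cell genes overlapped, at 205 to 430 in WT and 125 to 255 in U9-KO. The part of both lists in the number of segments was not tested.

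By family, the Ighv1 group held 46 of the members and 47.8% of the Ighv count on average, from 21.2% in WT female 3 to 85.5% in U9-KO female 1. Ighv6 followed with 12.5% from 3 members, Ighv5 with 6.67% from 9, Ighv7 with 6.49% from 3 and Ighv2 with 6.30% from 8. In single libraries these shares followed the leading segment. The Ighv2 family took 60.0% of U9-KO male 4, nearly all of it Ighv2-2, and Ighv6 took 39.4% of WT female 3, nearly all of it Ighv6-3. The 45 members nearest the diversity segments held 18.0% to 75.7% of a library's count. That share was 50.2% ± 23.1 (SD, n = 5) in WT females, 44.9% ± 22.0 (SD, n = 5) in U9-KO females, 63.4% ± 6.02 (SD, n = 3) for WT males and 60.1% ± 18.7 (SD, n = 4) for U9-KO males, and the genotypes overlapped in each sex.

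The first genotype comparison asks whether loss of U90926 changed pWAT transcripts in females. WT females had summed Ighv counts of 281, 737, 462, 209 and 551, and U9-KO females had 5784, 1538, 5952, 1175 and 1099. Every U9-KO female was above every WT female. The mean was 448 ± 212 (SD, n = 5) in WT and 3110 ± 2524 (SD, n = 5) in U9-KO, 6.94-fold higher, and the medians differed 3.33-fold. U9-KO females 1 and 3 supplied 37.2% and 38.3% of the U9-KO count. Without these 2 libraries the ratio of means was 1.50 on the log2 scale in place of 2.80, and the groups still did not overlap. Without the 3 top segments of each library the sums were 197, 270, 215, 151 and 209 in WT and 1325, 465, 3664, 737 and 388 in U9-KO, again without overlap.

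**Figure D3:**
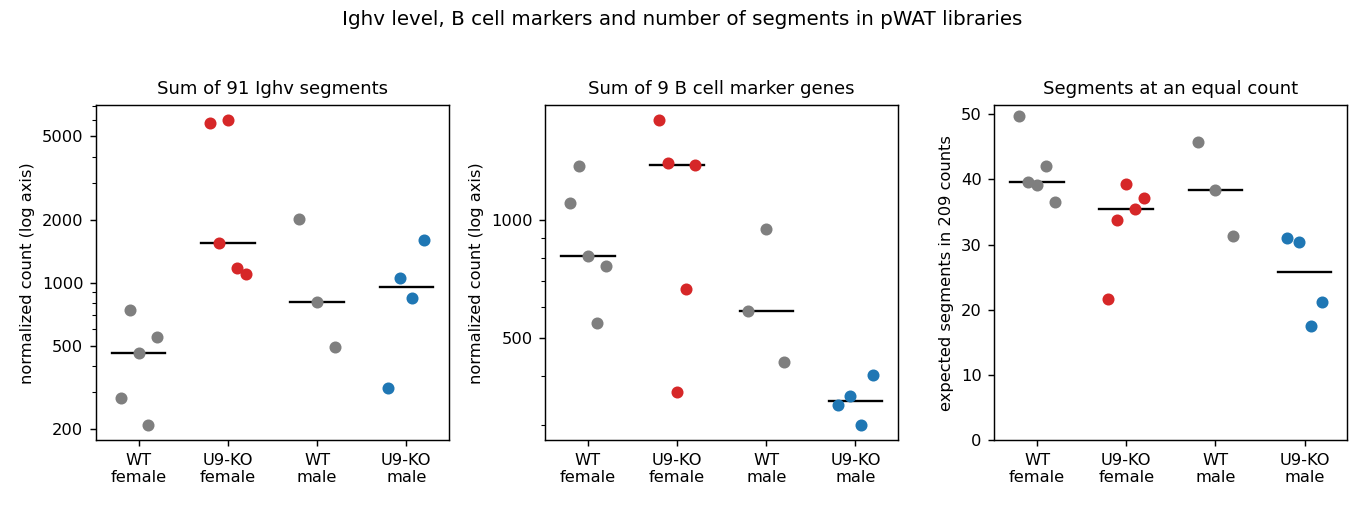
Left, summed normalized count of the 91 segments; middle, summed normalized count of 9 B cell marker genes (both on log axes); right, expected number of segments at an Ighv count of 209. Points are mice and bars are group medians. U9-KO females lie above WT females on the left but not in the middle, and U9-KO males lie below WT males in the middle and on the right; the right panel leaves out Ighv11-2 and Ighv12-3, with which the male groups overlap.

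Over all 91 members the mean was higher in U9-KO females for 76, lower for 11 and equal for 4. After a filter on low values 82 members entered the limma fit of 24825 genes, but 38 of these had a sum under 10 in the WT females and 9 had one under 10 in the U9-KO females, so many passed through 1 genotype alone. No member passed an adjusted p of 0.05, and no gene of the whole table did (0%). At an unadjusted p under 0.05 there were 19 members, all higher in U9-KO, against 1.24% of all genes tested that were higher, 0.983% that were lower and 2.23% in either direction. The median log2 difference was 1.22 over the 82 members tested and 0.00 over all genes. The members at 10 or more in both genotypes numbered 42, of which 9 were higher at an unadjusted p under 0.05 and 0 lower, with a median of 1.23. The other 10 of the 19 had a WT sum under 10. No segment with a mean of at least 10 in females was lower in U9-KO, but 26 of these 30 had a WT mean under 10 and entered through the U9-KO mice, so their direction is not a result.

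Ighv1-53 had the smallest p of the segments in females. Its counts were 3, 12, 14, 3 and 12 in WT and 37, 17, 279, 156 and 23 in U9-KO. It was the only member tested whose female groups did not overlap, where 0.169% of all genes did so in that direction and 0.0685% in the other. The log2 difference was 2.82 ± 0.77 (SE), with a limma p of 0.0034 and an adjusted p of 1.

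The other segments named by p were higher by less or through fewer mice. Ighv1-72 was at 5, 7, 3, 2 and 5 in WT and at 6, 11, 58, 18 and 10 in U9-KO, overlapping in U9-KO female 1, with a log2 difference of 1.65 ± 0.54 (SE). Ighv9-3 was at 7, 7, 5, 13 and 30 against 11, 28, 62, 67 and 21, overlapping through WT females 4 and 5, with a difference of 1.52 ± 0.57 (SE). Ighv10-3 was at 4, 2, 6, 0 and 1 against 5, 18, 103, 56 and 1, with a difference of 2.53 ± 1.00 (SE). Ighv5-9 was at 0, 1, 0, 0 and 0 against 0, 10, 13, 105 and 1, and its difference of 2.80 ± 1.04 (SE) rested on 3 mice. None of these 4 passed the adjusted threshold (adjusted p = 1 for each in limma). The most used segment, Ighv1-11, differed by 2.47 ± 1.52 (SE), and Ighv1-42, high in 1 mouse, by 3.69 ± 1.65 (SE), so the spread between mice was a large part of both.

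The summed B cell genes overlapped between the female genotypes. They were at 546 to 1369 in WT and 365 to 1792 in U9-KO, and the lowest value was that of U9-KO female 3, the library with the highest Ighv count. Of the 9 B cell genes, 6 were higher and 3 lower in U9-KO females, none at an unadjusted p under 0.05. Among other antibody transcripts, Jchain, which links IgM and IgA into polymers, averaged 230.2 in WT and 1604 in U9-KO females without overlap, and the kappa constant gene Igkc averaged 770.0 and 4975, also without overlap. Ighm, at 1098 to 10357 in WT and 2869 to 18193 in U9-KO, overlapped, as did Igha and Ighg3. Ighg1, Ighg2b and Ighg2c overlapped too but were higher at an unadjusted limma p under 0.05, where 1.24% of all genes were. All 7 antibody constant genes tested were higher in U9-KO females, 3 at that p, and all 4 light chain constant genes, 3 at that p. All of these genes had an adjusted p of 1 in limma. The summed switched classes, Ighg1, Ighg2b, Ighg2c, Ighg3 and Igha, did not overlap, at 266 to 1342 in WT and 1680 to 9344 in U9-KO. The 12 plasma cell genes summed to 7067 to 9786 in WT and 7249 to 12292 in U9-KO. Xbp1 alone held 4352 to 5412 and 4650 to 6522, so the sum says little of the others. Of the 12, 10 were higher and 2 lower in U9-KO females. Jchain, Mzb1, Prdm1 and Tnfrsf17 were higher at an unadjusted limma p under 0.05, where 1.24% of all genes were, with an adjusted p of 1 each. The part of these genes in the Ighv result was not tested.

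The same comparison was made in males. The summed Ighv count was 2006, 808 and 492 in WT and 314, 1052, 845 and 1602 in U9-KO, which overlap. The mean was 1102 ± 799 (SD, n = 3) in WT and 953 ± 533 (SD, n = 4) in U9-KO. WT male 1 held 60.7% of the WT count, and the log2 ratio of means, -0.21, turned to 0.55 without it. With Ighv11-2 and Ighv12-3 kept in, the ratio was -1.06, because Ighv11-2 alone was at 2397 in WT male 2 and at 245 and 106 in the other WT males, against 30, 7, 25 and 12 in U9-KO males.

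Over all 91 members the mean was lower in U9-KO males for 55, higher for 32 and equal for 4. The filter left 68 members in the fit of 21930 genes, of which 17 had a sum under 10 in WT and 26 in U9-KO males. No member passed an adjusted p of 0.05, and no gene of the table did (0%). At an unadjusted p under 0.05, 11 members were lower, where 4.09% of all genes tested were lower, and 1 was higher, where 3.51% were (7.6% in either direction). Of the 11 lower members, 6 had a U9-KO sum under 10 and entered through WT. Among the 30 members at 10 or more in both genotypes 5 were lower and 0 higher at that p, with a median of -0.99. The higher member of the 12 was Ighv5-9, at 0 in the 3 WT males and at 33, 0, 3 and 4 in U9-KO. The median log2 difference was -0.96 over the 68 members tested and 0.00 over all genes, but -0.14 over the members without WT male 1. Only 1 member tested, Ighv11-1, had U9-KO males all below WT, where 3.8% of all genes did, and none lay all above, where 3.8% did as well. Ighv11-1, named after its values were seen, was at 2, 20 and 1 in WT and at 0 in all 4 U9-KO males. Its V exon was 98.7% identical to that of Ighv11-2, which was at 2397 in WT male 2, so its counts are uncertain.

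Ighv10-1 had the smallest p in males. It was at 82, 31 and 74 in WT and at 1, 3, 32 and 0 in U9-KO, overlapping through U9-KO male 3 alone. The log2 difference was -3.86 ± 1.00 (SE), with a limma p of 0.0031 and an adjusted p of 0.612. Ighv7-1 was at 104, 101 and 7 against 0, 13, 0 and 2, and Ighv14-2 at 29, 97 and 1 against 1, 0, 0 and 0. In both cases WT male 3 was close to the U9-KO mice, and their differences were -4.11 ± 1.10 and -3.92 ± 1.10 (SE). Ighv1-53 was at 24, 163 and 14 against 0, 41, 3 and 1, and Ighv9-3 at 228, 76 and 9 against 1, 82, 0 and 2. Each overlapped through U9-KO male 2, with differences of -3.20 ± 1.20 and -3.57 ± 1.45 (SE).

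Of the 5 segments named by p as higher in U9-KO males, with a mean of at least 10, each but Ighv1-80 was high in 1 U9-KO mouse. Ighv1-15 was at 8, 0 and 0 in WT and at 108, 0, 3 and 5 in U9-KO. Ighv5-6 was at 1, 2 and 7 against 1, 3, 148 and 10, and Ighv1-7 at 1, 0 and 7 against 0, 9, 0 and 142. Ighv1-4 was at 1, 0 and 10 against 0, 95, 0 and 1, and its largest value was the second highest in U9-KO male 2. Ighv1-80 was at 82, 2 and 2 against 7, 28, 5 and 10, highest in WT male 1. Its mean count was lower in U9-KO males (12.5) than in WT males (28.7), unlike its log2 difference. Their log2 differences ran from 0.29 ± 1.08 (SE) for Ighv1-80 to 1.78 ± 1.41 (SE) for Ighv1-15, and none passed the adjusted threshold in limma.

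The difference of the genotype effect between the sexes was tested in 1 fit of all 17 mice. Its filter, a sum of at least 10 over the 17 mice, was also the rule for members, so a member could enter through 1 group alone. Ighv1-66, for example, had sums of 2 and 35 in WT and U9-KO females and 0 in both male groups. The count of members at a low p is therefore given as a value and is not a result. No member and no gene of 26289 tested passed an adjusted p of 0.05 (0%). At an unadjusted p under 0.05, 17 of the 91 members had a lower U9-KO minus WT difference in males than in females, where 1.97% of all genes did, and none had a higher one, where 1.49% did (3.46% in either direction). The median of that difference was -1.63 over the members and 0.00 over all genes. For Ighv1-53 it was -6.03 and for Ighv14-2 -6.30, both with an adjusted p of 1 in limma. Of the 63 members tested in both sexes, 36 were higher in U9-KO females and lower in U9-KO males, 17 were higher in both, 10 lower in both and 0 the other way round. Of all genes, 49.9% were higher in U9-KO females and 50.1% in U9-KO males. However, 38 of the 82 members tested in females had a WT sum under 10. In males, 26 of the 68 tested had a U9-KO sum under 10. Many directions were thus set by the filter, so these 4 counts are not a result.

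**Figure D4:**
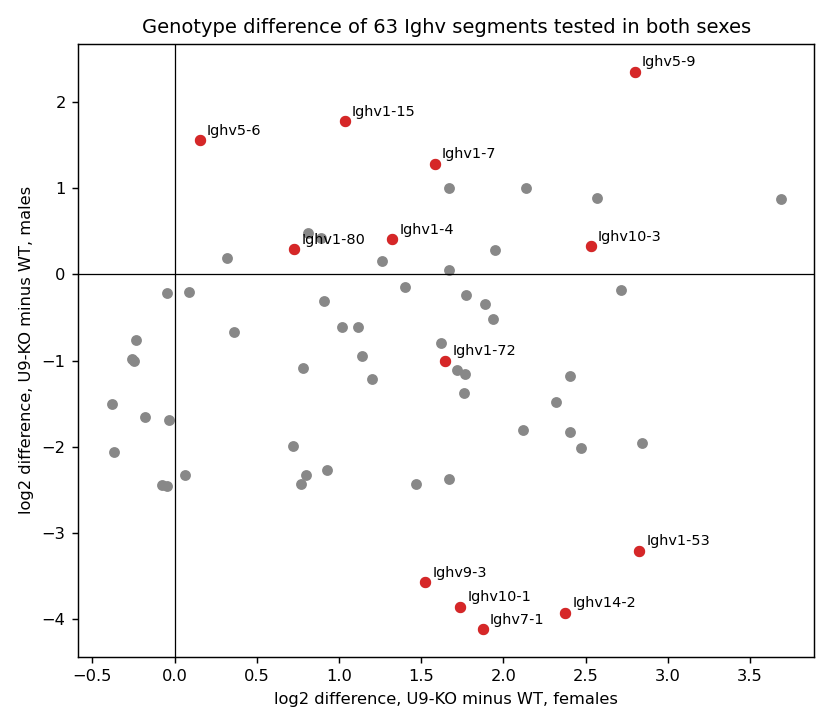
Log2 difference, U9-KO minus WT, of the 63 segments tested in both sexes, females on the x axis and males on the y axis, with the segments named by p in either sex in red. The lower right field holds 36 segments, among them Ighv1-53 at 2.82 and -3.20, and the upper left field holds 0.

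The heavy chain segments were set beside the constant genes of the same libraries. With Ighv11-2 and Ighv12-3 kept in, Igkc ran at 1.28 to 2.25 times the Ighv sum in all 17 libraries, while the sum itself went from 221 to 6364. Without these 2 segments the ratio was 1.40 to 2.47 in 16 libraries and 7.16 in WT male 2, the library with Ighv11-2 at 2397. Ighm did not keep such a ratio: it ran at 2.44 to 48.5 times the sum of the 91 segments, from U9-KO female 4 to U9-KO male 1. Females ranged from 2.44 to 20.7 and males from 11.1 to 48.5. The Ighm transcript is longer than a V exon, so only the change of the ratio between libraries can be read.

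**Figure D5:**
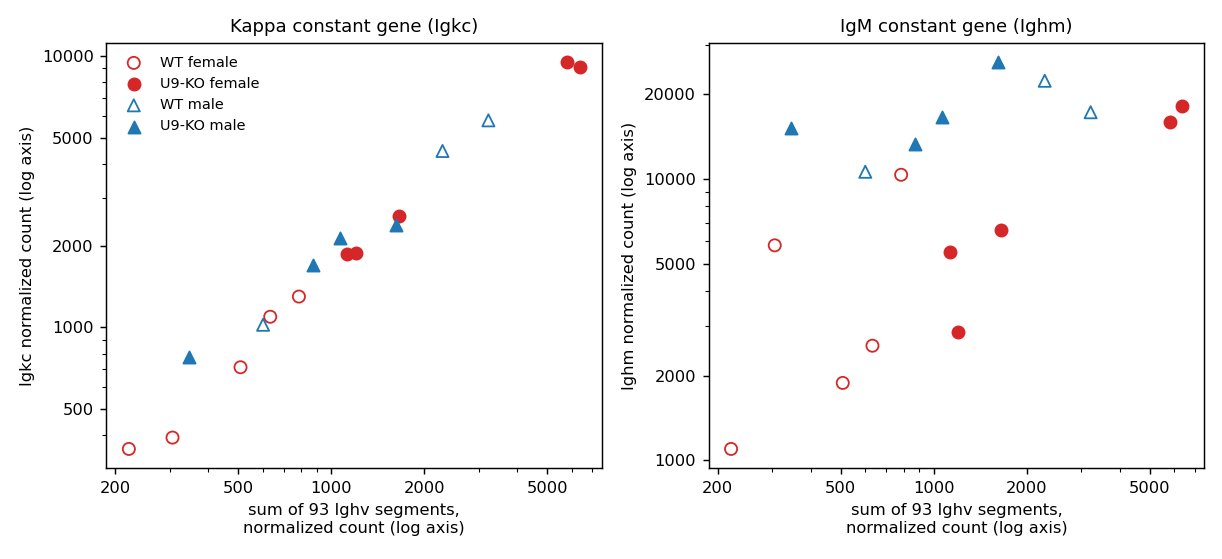
Igkc (left) and Ighm (right) normalized count against the summed count of 93 Ighv segments, Ighv11-2 and Ighv12-3 included, in 17 libraries (circles, females; triangles, males; filled, U9-KO; log axes). Igkc rises along 1 line over all mice, within 1.28 to 2.25 times the Ighv sum, and Ighm lies higher in males at a like Ighv sum.

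The constant genes of switched antibody classes also varied between libraries, and a link to the leading segment was not tested. WT females had Ighg3 at 13, 1073, 106, 19 and 29, and U9-KO females had it at 792, 2205, 2838, 87 and 23. The 3 highest values were in WT female 2, U9-KO female 2 and U9-KO female 3, each led by Ighv1-11. WT females 4 and 5 were also led by Ighv1-11 and had Ighg3 at 19 and 29, so the pairing did not hold in every such library. In males Ighg3 was at 98, 15 and 2 in WT and 10, 18, 635 and 6 in U9-KO, highest in U9-KO male 3, led by Ighv7-3. U9-KO female 1, led by Ighv1-42, had Ighg2c at 5449 and Ighg2b at 2562, where no other library had Ighg2c above 120 or Ighg2b above 747. U9-KO male 4, led by Ighv2-2, had no switched class above 74 and Ighm at 26058, the highest of all libraries. Which constant gene was joined to which segment was not measured, since reads were counted gene by gene.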

How the data were processed

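Paired-end, stranded RNA-seq reads were trimmed (trim_galore), aligned to GRCm38 with STAR 2.7.3a and counted per gene with summarizeOverlaps in Union mode, in which read pairs touching more than 1 gene are not counted, so pairs reaching from a V exon into another annotated segment could be lost. The deposited values, entered as a score, are read counts the authors divided by DESeq2 1.28.1 size factors and rounded to whole numbers. Binomial counting intervals were therefore not given, and read totals were estimated from the steps between low values. Columns were matched to samples by GEO's labels; 2 male columns carried another replicate number than the label. Columns of per-sample values of no sample numbered 0. The series-wide table was not used.

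Ensembl identifiers were named with GENCODE M21 (55141 of 55401). Log2(value + 1) was fitted with limma 3.58.1 (R 4.3.3) with a mean-variance trend, two-sided, within each sex on genes with a sum of at least 10 over the mice of that sex (over all 17 mice for the interaction), with Benjamini-Hochberg adjustment over all genes; fold changes are on this scale and understate low genes. Scripts were tested on simulated data. Labels do not state separate litters or batches, so p-values measure only the spread between these mice. Named segments were the 10 of highest mean share, the top segment of each library, the 5 higher and 5 lower of smallest p in each sex with a mean of at least 10, Ighv1-53, and Ighv11-2 and Ighv12-3 as values only; others were named after their values were seen. A gene of the B cell list is not reported here, and the list was used without it. Members and lists were chosen with earlier results of these data known. Alternatives covered filters, pseudocount, trend, scaling, left-out mice, the replicate block and near-identical segments joined.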

Additional observations from a re-analysis of the deposited data

Results flagged for a closer look

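In groups of 4 or 5 mice, a mouse far from the others was looked for in 87 sets of values (8 quantities of a library and the named segments), and 30 sets held one. Chance flags about 1 in 20 such groups of unchosen values, but several segments were named because they led 1 library, and some values are 1 or 2 beside zeros, so that rate does not apply here and nothing is read from the number. In WT females these were Ighv10-1 in mouse 3 (46, the others 4 to 12) and, in mouse 2, Ighv1-80 (43, the others 1 to 3), Ighv1-42 (2), Ighv1-7 (2) and Ighv5-9 (1), the last 3 beside mice at 0. In U9-KO females, mouse 1 stood apart for Ighv1-42 (2958, the others 1 to 9) and Ighv1-55 (931, the others 5 to 36), and mouse 4 for Ighv5-9 (105, the others 0 to 13). Mouse 3 stood apart for Ighv7-3 (939), Ighv10-1 (320), Ighv6-6 (372), Ighv7-1 (234), Ighv1-72 (58) and Ighv1-4 (36), the highest values of these 6 among the U9-KO females.

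In U9-KO males the ratio of Ighm to the Ighv sum was 48.5 in mouse 1 and 15.8 to 16.3 in the others. Mouse 1 also stood apart for Ighv1-15 (108), Ighv5-9 (33) and Ighv14-2 (1, the others at 0). Mouse 2 did so for Ighv1-11 (37), Ighv1-53 (41), Ighv9-3 (82), Ighv1-72 (40), Ighv1-4 (95) and Ighv7-1 (13). Mouse 3 did so for Ighv6-3 (190), Ighv10-1 (32) and Ighv5-6 (148), and mouse 4 for Ighv2-2 (953), Ighv1-55 (194) and Ighv1-7 (142). The rule names at most 1 mouse per segment in a group, so these sets could not share a segment and nothing is read from that.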

How the results depend on the processing

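No segment passed an adjusted p of 0.05 in either sex or in the interaction under any alternative run. Female segments at an unadjusted limma p under 0.05 numbered 19 of 82 tested, beside 553 of all 24825 genes. They were 12 of 46 among members with a total of at least 100, in the same fit. Without U9-KO females 1 and 3 together (chosen after seeing the data) they were 9 of 69, beside 474 of 24048 genes. With 1 mouse left out the segments numbered 10 to 22, and all genes at that p 410 to 1225. Without WT female 1, 2 or 5 the segments were 11 of 81, beside 664 of 24493, 614 of 24503 and 410 of 24533 genes. Without U9-KO female 3 they were 10 of 75, beside 473 of 24504 genes. In males the 12 of 68, beside 1667 of 21930 genes, became 6 with no trend, beside 1500 of 21930. They became 0 with at least 10 in every mouse, where 1 segment remained to be tested (none in females). With 1 mouse left out the male segments numbered 5 to 17. When U9-KO male 1 was omitted they were 5 of 62, beside 1179 of 21400 genes. When WT male 1 was omitted they were 7 of 53, beside 3345 of 21467 genes, so the segments did not exceed the share of all genes there. In that fit 71 genes, none of them a segment, passed an adjusted p of 0.05. The interaction's 17 of 91 became 8 of 46 among members with a total of at least 100, beside 910 of 26289 genes in the same fit. The cause of these changes was not tested, beyond the fewer segments or mice used. The median number of segments at 1 or more, 54, became 36.5 at an equal Ighv count, and 35.6 with Ighv11-2 and Ighv12-3 kept in as well. The log2 ratio of mean female Ighv counts, 2.80, became 1.50 without U9-KO females 1 and 3.

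Same-numbered WT and U9-KO mice did not deviate together (correlations of -0.31 to 0.05), and no library correlated best with its own number. With the replicate block 19 female, 12 male and 16 interaction segments had an unadjusted limma p under 0.05. All genes at that p numbered 456 of 24825 in females, 1393 of 21930 in males and 777 of 26289 in the interaction. The sign of the log2 difference was followed only for the segments named by p in each sex, not for all named segments. Among those followed only male differences changed sign. Ighv1-7 fell to -0.23 with the replicate block. With 1 mouse left out Ighv1-7 ranged from -0.23 to 2.16, Ighv1-80 from -0.50 to 1.89 and Ighv1-4 from -1.15 to 1.40. Values under about 10 in a library rest on few reads.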
